A study of Mus musculus with 2 samples.

Results

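The genes described here are 8 C-type lectin genes around Clec9a on mouse chromosome 6: Clec1a, Clec1b, Clec9a, Clec12a, Clec12b, Clec7a, Clec2d and Olr1. They are 8 of 24062 genes listed in the deposited tables of 2 single-cell libraries from spinal cord, and 7 of the 8 had a UMI (unique molecular identifier, a tag for 1 captured RNA molecule) in either library. Clec9a was taken because it carries the Cre recombinase of the tracing system, Clec1b because it was among the genes most raised in the traced library, and the other 6 by family and position. The difference of Clec1b between the libraries is therefore a description of the gene as chosen, not evidence about it.

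Both libraries came from adult C57BL/6j mice of 10 to 12 weeks with the genotype Clec9acre/creR26LSLtdTomato/LSLtdTomato. Cre thus stood at both copies of Clec9a in traced and non-traced cells alike, and both copies of the Rosa26 locus carried the tdTomato reporter that Cre switches on. A cell in which this Cre once acted, and its progeny, make tdTomato whether or not Clec9a is still transcribed. The study considers that recombination may be incomplete and leave some embryonic cells with DNGR-1 expression unmarked. A non-traced cell is thus not shown to lack that history. The study's methods treat mice of this genotype as Clec9a-deficient, and where in the gene the Cre lies is not given in the sources used here. Spinal cords of perfused mice were dissociated and depleted of myelin, and live CD45- CD133+ cells were sorted by tdTomato into a CD133+ DNGR-1 traced and a CD133+ non-traced library. CD133 is the product of Prom1 and CD45 is the surface protein of blood cells. How many animals were pooled is not given in the sources used here.

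The lectins of this cluster are single-pass membrane receptors of the natural killer gene complex, and most are known from blood cells. Clec1b encodes CLEC-2, the platelet receptor for podoplanin, and Clec9a encodes DNGR-1, a receptor of dendritic cells for actin filaments exposed by dead cells. These receptors and the beta-glucan receptor dectin-1 (Clec7a) signal through a short tyrosine motif and the kinase SYK, whereas Clec12a and Clec12b carry inhibitory motifs that recruit the phosphatases SHP-1 and SHP-2. Clec1a is known from endothelium, Clec2d encodes a ligand of NK receptors, and Olr1 encodes LOX-1, a receptor for oxidised low-density lipoprotein.

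In the GENCODE vM21 annotation (GRCm38, the assembly that the authors' build mm10 corresponds to) the 8 genes span 326.55 kb. On the forward strand lie Clec2d (129180615 to 129186534), Clec12a (129342691 to 129365303), Clec1b (ENSMUSG00000030159.15, 129397297 to 129409335) and Clec9a (ENSMUSG00000046080.17, 129408862 to 129424763). On the reverse strand lie Clec12b (129375515 to 129385874), Clec1a (129424772 to 129452000), Clec7a (129461591 to 129472779) and Olr1 (129485244 to 129507165). The 3 coding Clec1b transcripts end by 129405333, which is 3529 bases before Clec9a. Another transcript, with a retained intron, runs on to 129409335 and its last exon contains all 184 bases of the first exon of Clec9a. Whether that transcript was in the annotation behind the deposited counts is not given in the sources used here. If it was, reads from those bases could not be assigned to 1 of the 2 genes, and the counts of Clec1b and Clec9a are uncertain to that extent.

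The 250 bases before the start of Clec1b and Clec9a are shown because the first was chosen for its difference between the libraries and the second carries the Cre. They are from RefSeq (GRCm38.p6), 5′ to 3′ on the forward strand, with every CG dinucleotide in capitals.
Clec1b, chr6:129397047-129397296: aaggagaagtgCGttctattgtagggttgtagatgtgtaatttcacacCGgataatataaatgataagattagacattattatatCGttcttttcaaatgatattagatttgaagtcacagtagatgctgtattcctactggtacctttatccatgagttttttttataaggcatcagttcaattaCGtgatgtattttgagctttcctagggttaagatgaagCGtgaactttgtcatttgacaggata
Clec9a, chr6:129408612-129408861: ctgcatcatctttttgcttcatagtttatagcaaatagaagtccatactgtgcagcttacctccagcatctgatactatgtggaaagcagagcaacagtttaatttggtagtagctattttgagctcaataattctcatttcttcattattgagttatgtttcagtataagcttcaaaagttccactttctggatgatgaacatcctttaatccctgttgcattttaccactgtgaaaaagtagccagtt
The Clec1b window holds 5 CG dinucleotides and 33.2% G and C, and the Clec9a window holds 0 and 35.6%. Over all 32851 RefSeq promoters of this length the medians were 6 and 52.4%. The Clec9a window lies within the long last exon of the retained-intron Clec1b transcript. Of the 8 genes, 7 had an entry, and in the windows of these 7 (Clec7a has 2 overlapping ones) 0 matches were found to the forkhead core TGTTTA or to the X-box half-site GTTGCC, searched on both strands. These letters occur in 12.0% and 10.4% of all promoters.

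**Figure D1:**
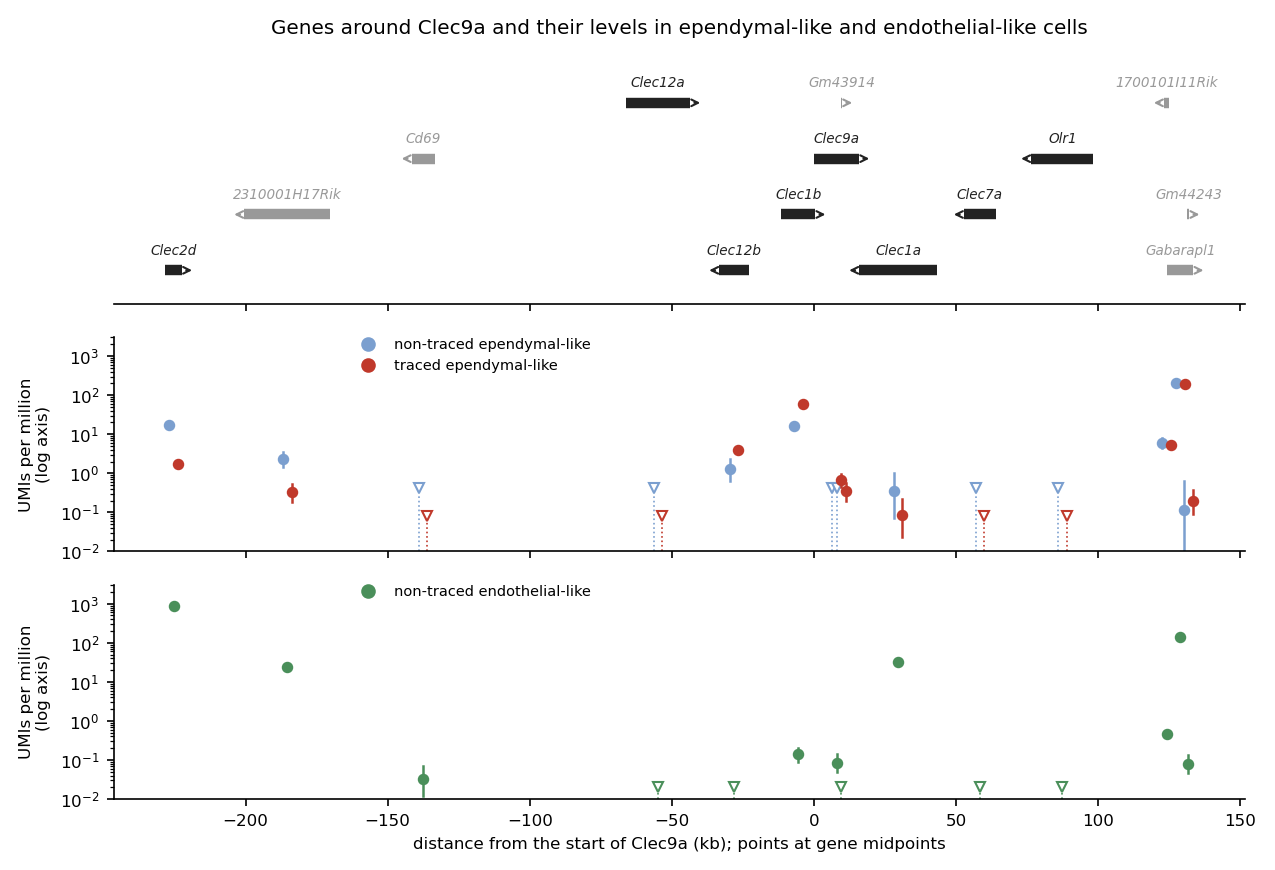
The 8 lectin genes (black) and some neighbours (grey) by distance from the start of Clec9a (kb), with arrows in the direction of transcription, above their levels (CPM, log axis, exact Poisson 95% intervals; open triangles mark the upper bound for a count of 0) for the ependymal-like class of each library and the larger endothelial-like class. Traced ependymal-like points lie above non-traced ones at Clec1b and Clec12b and below them at Clec2d.

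The non-traced library held 25411 cells (233318692 UMIs, median 7218 per cell) and the traced library 4825 cells (46530507 UMIs, median 8566), and 42 of the 4825 traced barcodes also occurred in the non-traced table. Clusters were named from marker genes, separately for each library. This gave 1158 non-traced and 4740 traced ependymal-like cells, 21132 non-traced and 52 traced endothelial-like cells, and 279 mural-like cells, all non-traced. The remaining cells carried markers of more than 1 class or stayed unnamed. All 10 ependymal markers were above 10 CPM (the UMIs of a gene, scaled so that every class has the same total) in the ependymal-like cells of both libraries, while the 8 endothelial markers summed to 348 CPM in the non-traced and 32.7 CPM in the traced ones. The tdTomato-WPRE row reached 317 CPM in the ependymal-like cells of the traced library and 73.1 CPM in those of the non-traced library. The library labelled non-traced was thus not at 0. Its endothelial-like groups of at least 50 cells ran from 41.3 to 77.0 CPM and its mural-like cells were at 75.3 CPM. The non-traced value was therefore not particular to ependymal-like cells. Each group was 1 library. No difference below has a replicate check or a test, and the 95% intervals, exact Poisson for levels and exact Clopper-Pearson for shares of cells, cover counting error only.

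Clec1b was a gene of ependymal cells in these libraries. It stood at 16.3 CPM (13.7 to 19.2, 140 UMIs) in non-traced ependymal-like cells and at 60.6 CPM (58.4 to 62.9, 2767 UMIs) in traced ones. The traced level was 3.73-fold higher (3.14 to 4.45), a log2 difference of CPM + 1 of 1.84 (1.60 to 2.07), which placed Clec1b at rank 5 of the 14826 genes with at least 1 CPM in either. In non-traced endothelial-like cells it was at 0.14 CPM (0.0915 to 0.205, 26 UMIs in 19 of 21132 cells), and the non-traced ependymal level was 116-fold higher (76.0 to 184). In mural-like cells it had 0 UMIs, where 3 UMIs would have been 2.02 CPM.

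The share of cells with a Clec1b UMI rests on the same counts as the level and describes them in another way. With every cell thinned to 1000 UMIs it was 1.99% (23 of 1158, 1.26 to 2.97) of non-traced and 5.95% (282 of 4740, 5.29 to 6.66) of traced ependymal-like cells. Of the non-traced endothelial-like cells, thinned likewise, 1 of 21132 had one (0.00473%). Without thinning the ependymal shares were 9.33% and 38.8%, from median depths of 7048.5 and 8564 UMIs.

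Most Clec1b-positive cells held a single molecule. Of the non-traced ependymal-like cells 82 had 1 UMI, 21 had 2, 4 had 3 and 1 had 4. Of the traced ones 1189 (25.1%) had 1 UMI, 447 (9.43%) had 2, 153 (3.23%) had 3, 35 had 4, 8 had 5 and 6 had more, up to 10 in 1 cell. The traced cells without a Clec1b UMI numbered 2902 (61.2%), and at these depths a cell without a UMI is not shown to lack the transcript.

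**Figure D2:**
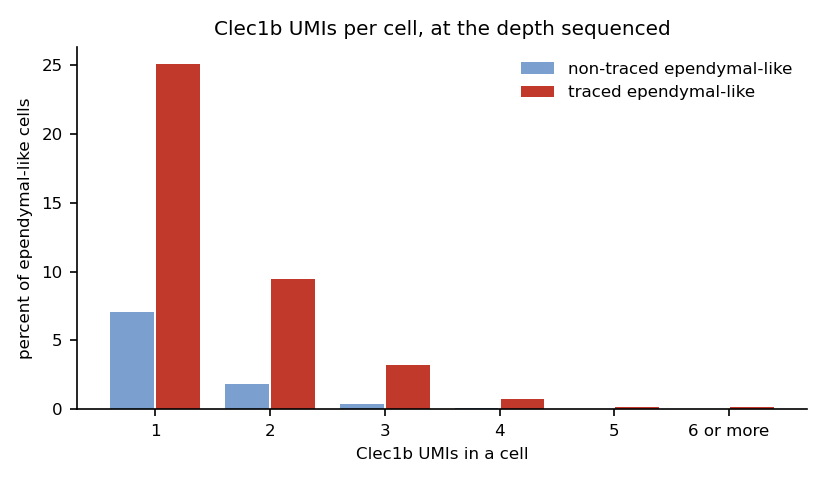
Share of ependymal-like cells (percent, vertical axis) by number of Clec1b UMIs (horizontal axis) in each library, without thinning. Bars fall from 25.1% at 1 UMI in traced cells, and the cells with no UMI, 90.7% of the non-traced and 61.2% of the traced, are not drawn.

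Among traced ependymal-like cells, the Clec1b share was similar whether or not the reporter transcript was caught. At 1000 UMIs per cell, 74 of 1318 such cells with a tdTomato UMI had a Clec1b UMI (5.61%, 4.43 to 7.0), against 208 of 3422 without one (6.08%, 5.30 to 6.93). These intervals overlap. At 3000 UMIs the shares were 16.7% (15.3 to 18.2) and 14.6% (13.1 to 16.3).

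Clec9a itself, the gene that carries the Cre, was at the edge of detection. With Cre at both copies, these UMIs come from the modified alleles, and whether they mark an intact transcript is not known. In the 4740 traced ependymal-like cells it gave 30 UMIs in 29 cells, a level of 0.657 CPM (0.443 to 0.938). In the 1158 non-traced ones it gave 0 UMIs, where 3 UMIs would have been 0.349 CPM. The traced level was 1.89-fold the level of 3 UMIs. The upper limit of the non-traced level was 0.429 CPM, close to the lower limit of the traced one. Non-traced endothelial-like cells held 16 UMIs in 16 of 21132 cells (0.0862 CPM, 0.0492 to 0.14), traced endothelial-like cells 1 UMI and mural-like cells 0.

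The 29 traced ependymal-like cells with a Clec9a UMI had Clec1b and tdTomato at shares whose intervals covered those of the other cells. Of them 14 (48.3%, 29.4 to 67.5) had a Clec1b UMI, against 38.7% of the cells without Clec9a, and 24 (82.8%, 64.2 to 94.2) had a tdTomato UMI, against 88.6%. Their median depth was 9169 against 8561 UMIs. Gm43914, an RNA annotated within an intron of Clec9a on the same strand, gave 16 UMIs in traced ependymal-like cells (0.350 CPM, 0.20 to 0.569). It gave 0 in the ependymal-like, endothelial-like and mural-like cells of the non-traced library. For the non-traced ependymal-like cells the upper limit of that 0 was 0.429 CPM, above the traced level, so no difference between the libraries is shown. None of the 16 cells with a Gm43914 UMI had a Clec9a UMI (0 to 20.6%), against 0.614% of the cells without Gm43914. At that share, 16 cells are too few to show whether the RNAs occur apart.

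Clec7a, the other gene here with an activating motif, was found outside the ependymal and vascular classes. Its 17 UMIs were in 4 cells of 1 non-traced group of 119 cells led by S100a9, Lyz2 and Dcn (16.5 CPM, 9.61 to 26.4), which was mixed by its markers. In that group 7 of 7 microglia or macrophage markers were detected, summing to 757 CPM, beside 5 of 5 fibroblast markers (11976 CPM), 3 of 3 erythroid (62688 CPM), 8 of 8 endothelial (7061 CPM) and 10 of 10 ependymal ones (532 CPM). In traced ependymal-like cells 0 UMIs were counted, and 3 would have been 0.0657 CPM. The annotation calls Clec7a a polymorphic pseudogene.

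Of the genes with an inhibitory motif, Clec12b was, like Clec1b, higher in traced ependymal-like cells, and Clec12a was not detected there. Clec12b stood at 1.28 CPM (0.638 to 2.29, 11 UMIs in 11 cells) in non-traced and at 4.03 CPM (3.47 to 4.66, 184 UMIs in 176 cells) in traced ependymal-like cells. The traced level was 3.15-fold higher (1.72 to 6.43), with a log2 difference of CPM + 1 of 1.14 (0.64 to 1.65) at rank 82. Clec12b had 0 UMIs in 21132 endothelial-like and 279 mural-like cells of the non-traced library. With 3 UMIs in place of 0 for endothelial-like cells, its non-traced ependymal level was 79.1-fold theirs. This fold leaves out the counting error of the 11 ependymal UMIs. The 3.15-fold value rests on 11 non-traced UMIs. The log2 difference was 0.98 in cells with no vascular UMI and 0.93 without the clusters led by Ucma and Mki67, both under the 2-fold limit used for counts of genes. Clec12a had 9 UMIs in 5 cells (8.73 CPM, 3.99 to 16.6), all in the same group of 119 cells as Clec7a.

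**Figure D3:**
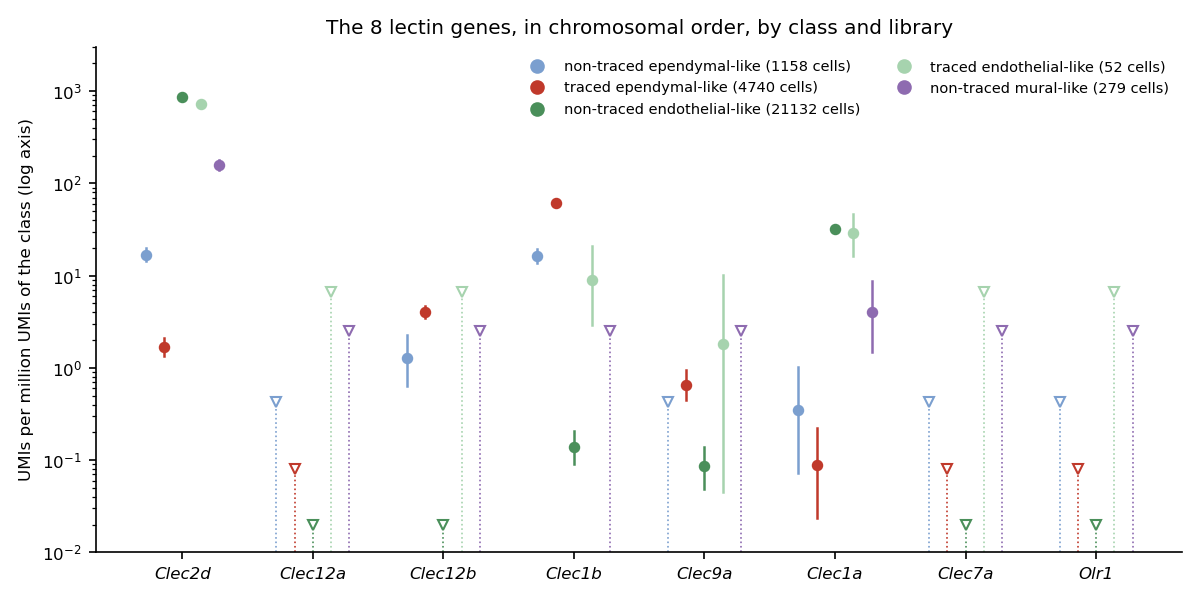
Level of the 8 lectins in chromosomal order (CPM, log axis) in each class and library, with exact Poisson 95% intervals; open triangles on dotted lines mark the upper bound where the count was 0. Clec1b and Clec12b are highest in traced ependymal-like cells, and Clec1a and Clec2d in endothelial-like cells of both libraries.

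Clec1a and Clec2d had the opposite pattern and were genes of the vessels. Clec1a stood at 32.3 CPM (31.5 to 33.1) in non-traced endothelial-like cells, where 4393 cells (20.8%) had a UMI, and at 28.8 CPM (16.5 to 46.8) in the 52 traced ones. Ependymal-like cells had 3 UMIs in the non-traced (0.349 CPM) and 4 in the traced library (0.0876 CPM). The non-traced endothelial level was 92.6-fold that of ependymal-like cells, with a wide interval (31.7 to 449), and 8.01-fold that of mural-like cells (3.68 to 21.8), which had 6 UMIs.

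Clec2d was present in nearly every endothelial-like cell. Its level was 863 CPM (858 to 867) in non-traced endothelial-like cells, of which 97.5% had a UMI, and 729 CPM (659 to 803) in traced ones. Mural-like cells were at 157 CPM (138 to 179), 5.49-fold lower (4.83 to 6.26). In ependymal-like cells it was at 16.8 CPM (14.2 to 19.8) in the non-traced library, 51.2-fold below the endothelial level (43.5 to 60.7), and at 1.69 CPM (1.33 to 2.11) in the traced library.

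Clec2d was thus 9.99-fold lower (7.53 to 13.3) in traced than in non-traced ependymal-like cells, a log2 difference of -2.73 (-3.03 to -2.43). That size depended on how the cells were classed, with -3.84 when the libraries were not integrated and -6.71 when clusters were named as wholes. Endothelial markers moved with it. The non-traced ependymal-like cells held 1.95% of the endothelial Clec2d level and 1.27% to 5.88% (median 1.71%) of the levels of the 8 endothelial markers. In the traced library the value for Clec2d was 0.231% and the markers ran from 0.0348% to 5.66% (median 0.0589%). Mural-like cells held 18.2% of the endothelial Clec2d level, above the range of the 8 endothelial markers there (5.69% to 11.7%). The part of carried-over endothelial RNA in these levels was not tested.

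The few Clec1b molecules outside the ependymal classes also moved with ependymal markers. The 52 traced endothelial-like cells held 5 Clec1b UMIs in 4 cells (9.0 CPM, 2.92 to 21.0), which is 14.8% of the traced ependymal level, and the 10 ependymal markers there were at 3.94% to 15.5%. In non-traced endothelial-like cells Clec1b was at 0.861% of the ependymal level and the markers at 0.0853% to 2.35%. In 704 non-traced cells with both ependymal and endothelial markers it was at 7.14 CPM, 43.9%, beside 41.6% to 53.3% for the markers. The part of ependymal RNA in these levels was not tested.

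Olr1, the LOX-1 gene, was listed in neither table. Between traced and non-traced ependymal-like cells, 3 of the 8 lectins reached 1 CPM in either library, and 2 were at least 2-fold higher in the traced library on the scale of CPM + 1 (Clec1b, Clec12b) and 1 was lower (Clec2d). Of all 14826 genes at that level 0.998% were higher and 2.97% lower, and the median log2 difference was -0.01. Clec1b was chosen on this contrast, so nothing is read from its place in the count. Just inside the 2-fold limit were Adgre1 and Egln3, both at 1.0, and just outside it Jade3 at 0.999 and 1700047I17Rik2 at 0.995.

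Between endothelial-like and ependymal-like cells of the non-traced library 4 of the 8 reached 1 CPM. Clec1a (log2 difference of CPM + 1 of 4.63) and Clec2d (5.60) were higher in endothelial-like cells, and Clec1b (-3.92) and Clec12b (-1.19) were lower. Over all 15346 genes 17.5% were higher and 31.1% lower, with a median of -0.23. With clusters named as wholes the differences of Clec1a and Clec2d were 1.60 and 1.63.

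Clec1b varied among the ependymal-like cells of each library. The levels of the 2 libraries did not meet, but the intervals at their nearest ends overlapped. Clustering the ependymal-like cells of each library on their own gave 6 non-traced sub-clusters of at least 50 cells, in which Clec1b ran from 10.2 CPM (6.13 to 15.9, led by Vgll3 and Apoc1) to 22.0 CPM (15.6 to 30.1, led by Zfp472 and Adamts9). In 9 traced sub-clusters it ran from 36.8 CPM (27.1 to 49.0), in 99 cells led by the proliferation gene Mki67, to 85.4 CPM (75.9 to 95.8) in 377 cells led by Tmem163 and Pcdh8. The lectins and the reporter rows were kept out of the features used to cluster. These values are descriptions of the sub-clusters.

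Clec12b and Clec9a had their highest values in another sub-cluster. Both were highest in the 818 traced cells led by Sntn, Sncg and Anxa8, with Clec12b at 7.11 CPM (5.45 to 9.11) and Clec9a at 1.49 CPM (0.794 to 2.55), while Clec1b there was at 71.6 CPM. In the cells led by Tmem163 and Pcdh8 the intervals of Clec12b (2.45 to 7.21) and Clec9a (0.180 to 2.56) overlapped these. In the 91 non-traced cells led by Sntn and Anxa8, Clec12b was again highest of its library, at 3.87 CPM (0.798 to 11.3, 3 UMIs). That interval overlaps those of all the other non-traced sub-clusters. Clec12b had a UMI in 8 of the 9 traced sub-clusters and Clec9a in 7.

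**Figure D4:**
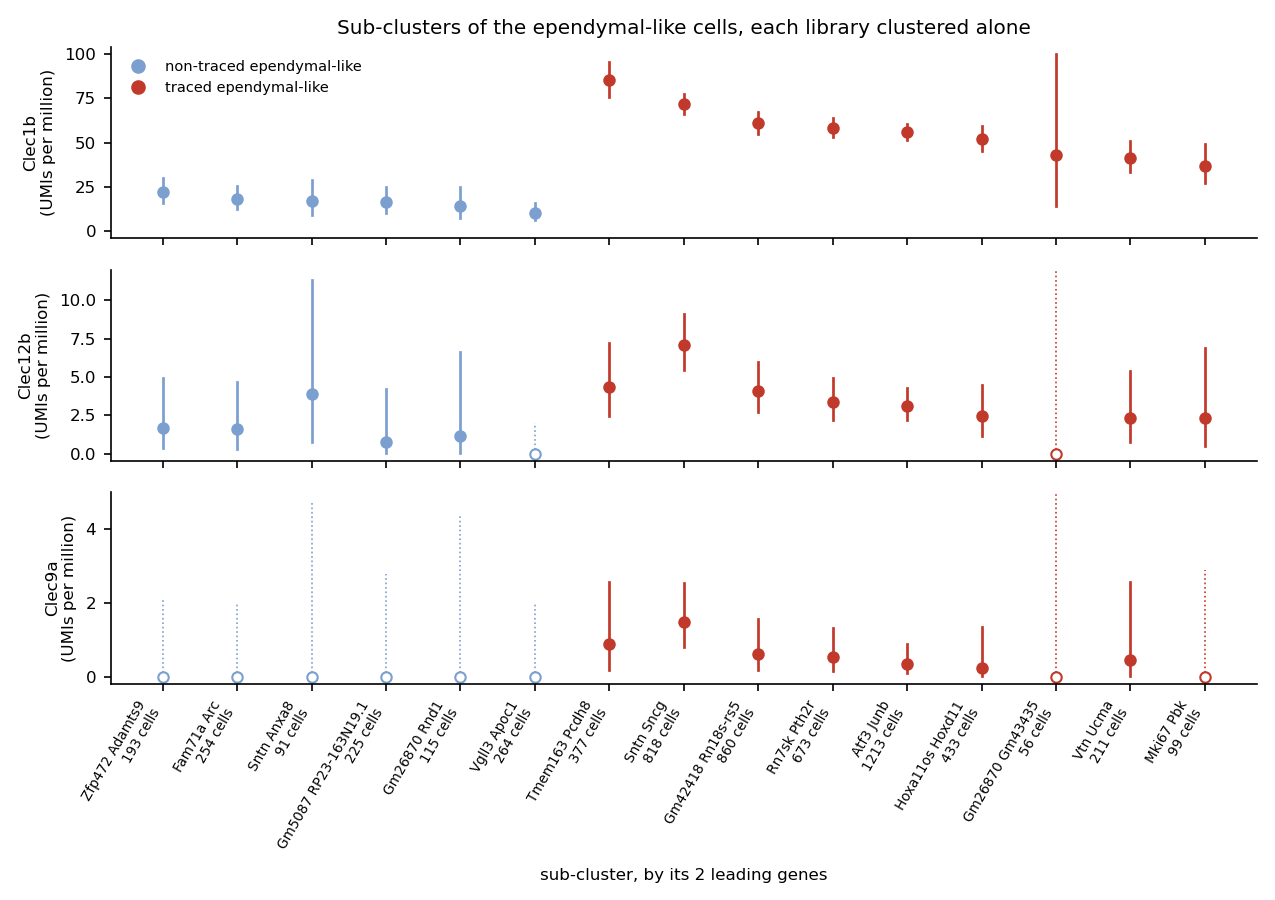
Levels of Clec1b, Clec12b and Clec9a (CPM) in the sub-clusters of ependymal-like cells of each library, named by their leading genes, with exact Poisson 95% intervals; the interval of the smallest traced sub-cluster (56 cells) runs past the axis for Clec12b and Clec9a. The lowest traced Clec1b value, 36.8, lies above the highest non-traced one, 22.0, and their intervals overlap.

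Clec1a showed its own spread along the vessels. Among 8 non-traced endothelial-like groups of at least 50 cells its level was highest, 82.6 CPM (75.4 to 90.3), in cells led by Fbln5 and Pi16, and next, at 53.4 CPM, in cells led by Gkn3 and Igfbp3. It was lowest, 7.99 CPM (6.93 to 9.17), in cells led by Vcam1 and Ptgs2, and the median of the 8 was 27.3 CPM. Clec2d ranged only from 712 to 1105 CPM over the same groups, and was also highest in the cells led by Fbln5 and Pi16.

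**Figure D5:**
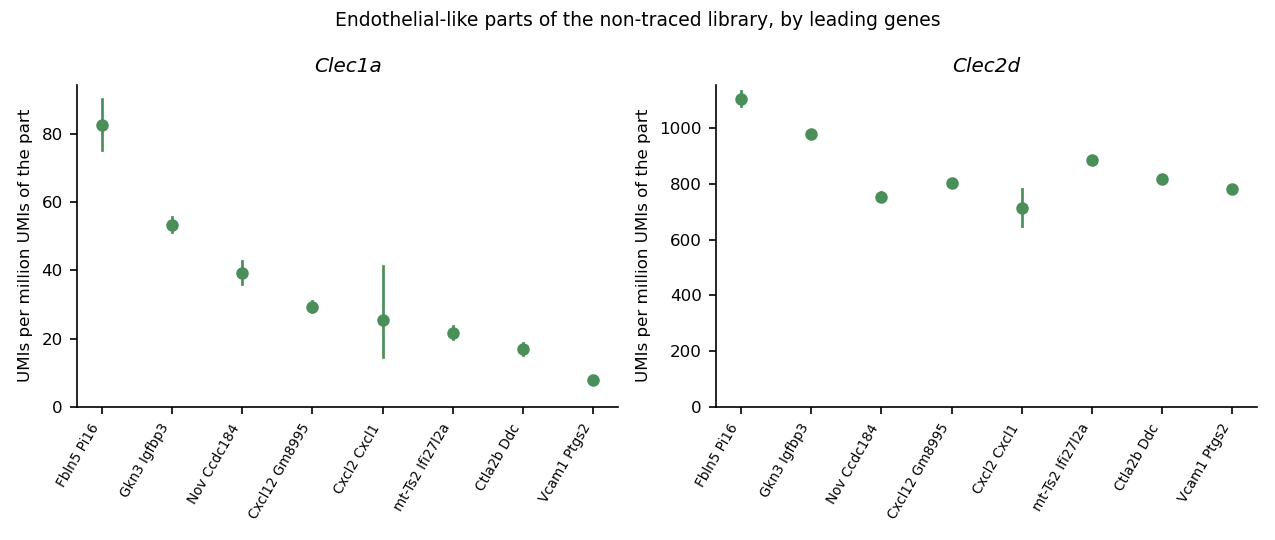
Levels of Clec1a and Clec2d (CPM, exact Poisson 95% intervals) in the 8 endothelial-like groups of the non-traced library, named by their leading genes. Clec1a runs from 7.99 to 82.6 CPM and Clec2d from 712 to 1105 CPM.

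The genes most like Clec1b over 23 groups of at least 50 cells from both libraries, by Pearson's r of log2(CPM + 1), were Gm3654, Ect2l, Wdr27, Dnaja4 and Vmn2r30, with r of 0.990 to 0.989. Among the lectins r was 0.95 for Clec12b, 0.56 for Clec9a, -0.89 for Clec1a and -0.95 for Clec2d. Over the 9 traced ependymal sub-clusters the leading genes were Smim13 (0.950), Tmem17 (0.936), Ppil6 (0.916), Nnat (0.902) and Nme9 (0.892). There r was 0.82 for Clec9a and 0.66 for Clec12b. The Clec9a value rests on 30 UMIs in all, at most 13 in a sub-cluster, and small sub-clusters weigh as much as large ones. The groups of 1 library share its depth and its preparation, and these values are descriptions.

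Among the ependymal-like cells, markers of the cells known for these receptors were mixed, some at 0 UMIs and others well detected. Of 7 platelet or megakaryocyte markers, Pf4, Ppbp, Gp9, Gp6 and Tubb1 were at 0 UMIs. Itga2b, an integrin gene, stood at 29.0 CPM (non-traced) and 24.4 CPM (traced). Treml1 was the other marker with a UMI in the non-traced cells, where the 7 summed to 34.2 CPM. In the traced cells Itga2b was at 24.8 CPM where a Clec1b UMI was present and at 24.2 CPM where none was. Of the 8 dendritic cell markers Flt3 and Itgax were at 0 in both libraries, while Batf3 was at 22.8 and 27.7 CPM. In the non-traced cells the other 6 had a UMI, 2 of the 8 were above 1 CPM, and all summed to 27.4 CPM. The 7 microglia or macrophage markers summed to 3.02 CPM and 0.394 CPM.

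Of the known ligands, podoplanin was at a similar level in both ependymal libraries. Pdpn, which encodes the podoplanin that CLEC-2 binds, was at 22.7 CPM (19.6 to 26.1) in non-traced and 21.9 CPM (20.5 to 23.3) in traced ependymal-like cells, at 0.0538 CPM in non-traced endothelial-like and 4.70 CPM in mural-like cells. Actb, the actin gene, was at 1844 and 1517 CPM. S100a13, another reported ligand of CLEC-2, was at 20.1 and 4.91 CPM, beside 681 CPM in endothelial-like cells, and Klrb1b and Klrb1d, whose products bind Clec2d, had 0 UMIs. Of the 5 ligand genes 3 reached 1 CPM, of which 0 were at least 2-fold higher and 1 (S100a13) was lower in traced cells, with a median log2 difference of -0.28, beside 0.998% higher and 2.97% lower over all genes.

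Of 15 genes that signal from the activating motifs, 6 reached 1 CPM in ependymal-like cells and 0 differed 2-fold between the libraries (median -0.27), which at the shares of 0.998% higher and 2.97% lower over all genes says nothing particular to them. Syk, the kinase that CLEC-2, DNGR-1 and dectin-1 recruit, had 0 UMIs in non-traced ependymal-like cells and 7 in traced ones (0.153 CPM, 0.0616 to 0.316). A count of 0 in those non-traced cells has an upper limit of 0.429 CPM, above the traced level. In endothelial-like cells Syk was at 0.646 CPM. Src was at 23.0 and 17.2 CPM and Bcl10, an adaptor downstream of SYK, at 39.5 and 36.3 CPM. Of the 3 genes of inhibitory signalling, Ptpn11 (SHP-2) was at 82.5 and 102 CPM, Ptpn6 (SHP-1) at 0.813 and 0.285 CPM and Inpp5d (SHIP-1) at 1.05 and 0.569 CPM, and 0 of the 2 that reached 1 CPM differed 2-fold (median -0.04).

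Further genes of the locus were few at these levels. Of 45 further genes annotated within 500 kb of Clec9a, 15 were listed in the tables and 6 reached 1 CPM in ependymal-like cells. Of these 6, 0 were at least 2-fold higher in the traced library and 1 was lower (2310001H17Rik, 2.32 against 0.329 CPM, beside 23.9 CPM in endothelial-like cells), with a median of -0.01. With 0.998% of all genes higher and 2.97% lower, so few genes do not set the locus apart. Klrb1f had 6.27 CPM without and 6.40 CPM with tracing, BC064078 at 20.8 and 26.0 CPM, and Gabarapl1, an autophagy gene, at 201 and 195 CPM.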

How the data were processed

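The authors deposited 1 table per library of UMI counts per gene and cell, made from 10x Genomics 3′ libraries with Cell Ranger 3.0.2 and STAR 2.5.1b on mm10, as the submitters' processing notes list them; the counts were not normalised. A gene absent from a table was set at 0. All 25411 and 4825 cells passed the study's filter of cells. In R 4.3.3 both libraries were integrated with Seurat 5.3.0 (2000 features, 20 dimensions, resolution 0.8), and each library's share of a cluster was named from marker genes, with thresholds set after the data had been seen. Groups with markers of more than 1 class were not named, and doublets were kept. Counts were summed per class, expressed as CPM and compared as log2(CPM + 1), with a minimum of 1 CPM in either group and a limit of 2-fold. The 3′ reads do not allow levels of different genes to be compared. A count of 0 is given with the level of 3 UMIs, and folds against 0 use that floor. Shares of cells were compared after thinning to 1000 UMIs. The rule that calls a difference was run on simulated counts with changes well over 2-fold in genes well above 1 CPM. Changes near these limits were not covered. The Poisson intervals were run on simulated Poisson counts only, so spread beyond counting error was not covered. The named genes are the 8 lectins, tdTomato-WPRE, Prom1, markers, and fixed lists of ligands, signalling genes and neighbours within 500 kb, with the 5 genes most like Clec1b. The genes and lists were chosen with earlier results of these data known. Scrublet was run in scanpy 1.11.5 (Python 3.11.15) and TMM scaling in edgeR 4.0.16 for alternatives.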

Additional observations from a re-analysis of the deposited data

How the results depend on the processing

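Of 128 alternative values 23 moved beyond the counting interval, and the others stayed near the value given above; none of the called values changed sign. The log2 difference of Clec1b between traced and non-traced ependymal-like cells was 2.40 with clusters named as wholes and 1.5 in cells with no vascular UMI. The share of cells with a Clec1b UMI was 9.33% and 38.8% without thinning and 4.36% and 15.9% at 3000 UMIs. The Clec2d difference between these libraries was -3.84 without integration, -6.71 with clusters named as wholes, -2.41 in cells with no vascular UMI and -3.25 with a pseudocount of 0.1. Between 2 and 4 lectins passed 2-fold between the ependymal libraries. Endothelial minus ependymal differences moved without integration (Clec1a 4.05, Clec2d 4.66), with whole clusters (Clec1a 1.60, Clec1b -3.34, Clec2d 1.63), in cells with no vascular UMI (Clec1a 5.06, Clec1b -4.27, Clec2d 6.09), under TMM (Clec2d 6.10) and with a pseudocount of 0.1 (Clec1a 6.17, Clec1b -6.09, Clec9a 0.90, Clec12b -3.78). The cause was not tested. Clec1b stayed at 0 UMIs in mural-like cells in the 4 alternatives that gave a value; without integration there was no mural-like class. Leaving out the clusters led by Ucma and Mki67 was chosen after seeing the data. Scrublet called 8.69% of the non-traced cells (2209; 20.3% expected) and 0 of the 4825 traced ones, so its alternative says little of the traced library. No library could be left out and no paired analysis was possible because each group was 1 library. Small counts limit the ependymal values of Clec1a (3 non-traced and 4 traced UMIs), Clec9a (0 and 30) and Clec12b (11 and 184).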

Other observations

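Prom1, which encodes the CD133 used for the sort, was higher in endothelial-like cells (335 CPM, 333 to 338, non-traced) than in ependymal-like cells, where it was at 25.7 CPM (22.4 to 29.3) in the non-traced and 10.1 CPM (9.20 to 11.1) in the traced library. Among the traced ependymal sub-clusters it was highest in the cells led by Mki67, at 40.7 CPM, in which Clec1b was lowest and Clec2d highest (13.3 CPM). The mural-like cells were at 35.6 CPM.

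In the non-traced library, 7 of the 15 signalling genes of the activating motifs reached 1 CPM in endothelial-like or ependymal-like cells. Of these, 5 were at least 2-fold higher in endothelial-like cells (Lyn, Plcg2, Bcl10, Malt1 and Prkcd) and 1 was lower (Src), with a median log2 difference of 1.79 beside -0.23 for all genes, of which 17.5% were higher and 31.1% lower. Lyn, a kinase of the SRC family, was at 67.1 CPM in endothelial-like and 1.16 CPM in ependymal-like cells, and Inpp5d, which encodes the phosphatase SHIP-1, was at 21.1 and 1.05 CPM.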
